A study of Mus musculus with 3 samples.

Results

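The S100 genes encode small calcium-binding proteins, most of which work as dimers that change shape when calcium binds and then attach to partner proteins inside the cell. S100a8 and S100a9 join as calprotectin, an abundant cytosolic complex of neutrophils and monocytes that is released at inflamed sites and bound by receptors such as Tlr4. The 8 genes described here, S100a1, S100a4, S100a6, S100a8, S100a9, S100a10, S100a11 and S100a13, were taken by symbol from the gene names of the count tables. They are 8 of the 17 S100 genes that the tables hold. Their identifiers are ENSMUSG00000044080 (S100a1), ENSMUSG00000001020 (S100a4), ENSMUSG00000001025 (S100a6), ENSMUSG00000056054 (S100a8), ENSMUSG00000056071 (S100a9), ENSMUSG00000041959 (S100a10), ENSMUSG00000027907 (S100a11) and ENSMUSG00000042312 (S100a13).

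Single-cell RNA was counted in 3 mouse libraries, 1 for each condition, so no value has a replicate. Co-Mac holds bone marrow cells of C57/BL6 mice that were cultured 7 days in GM-CSF without treatment. VD-Mac holds the same culture given 1 uM of 1,25 dihydroxy-cholecalciferol, the active form of vitamin D3 (VD3), for 24 hours. The labels give neither the age of the mice nor the number of animals behind the cultures. The graft library, hSTSG, holds cells from human split-thickness skin that stayed for 14 days under the skin of wild-type C57BL6/J mice, with 5 mice pooled. Its reads were counted on mouse genes, so host cells were measured and graft cells of human origin were not. The graft and the cultures differ in source and handling, and each culture condition is 1 library, so treatment and library cannot be told apart.

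The filter kept 7257 of 7866 barcodes in Co-Mac, 8825 of 9794 in VD-Mac and 2144 of 2644 in hSTSG. These held 132574308, 116461484 and 22646544 UMIs (counted molecules), with medians of 15804, 12089 and 6638 UMIs per cell. Cell types are named with "-like" from marker genes, and clusters without a clear name keep a number. The cultures are labelled as macrophages, but clusters named macrophage-like held 14.3% of Co-Mac cells and 13.1% of VD-Mac cells. When each cell was typed by its own markers instead, 2497 Co-Mac and 2685 VD-Mac cells were macrophage-like. Almost all macrophage-like cells of Co-Mac came from culture cluster 7, and almost all of VD-Mac from culture cluster 5. No name was given to 48.6% and 71.7% of the culture cells, and to 7.79% of the graft cells. Culture clusters 0, 6 and 8 were almost all VD-Mac cells, and clusters 1 and 10 and the monocyte-like cells almost all Co-Mac cells, so these groups may reflect the library as much as a type. Kept cells of different libraries shared 15 barcodes (Co-Mac and VD-Mac), 3 (Co-Mac and hSTSG) and 6 (VD-Mac and hSTSG).

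All 8 genes were detected in every library. Levels are given as CPM, the UMIs of a gene in every 1000000 UMIs of the summed cells, with an exact 95% Poisson interval in brackets, and shares with a Clopper-Pearson interval. All intervals cover counting error only. S100a8 stood at 3044 CPM (3035 to 3054) in Co-Mac, 3561 (3550 to 3572) in VD-Mac and 4048 (4022 to 4075) in hSTSG. For S100a9 the levels were 2031 CPM (2024 to 2039), 2337 (2329 to 2346) and 3810 (3785 to 3836). With the limit of 10% mitochondrial UMIs, both genes were lowest in the untreated culture and highest in the graft. The intervals of the 3 libraries did not overlap. Culture cells under 5% alone had S100a8 at 5977 CPM in Co-Mac and 8474 in VD-Mac, and S100a9 at 4031 and 5576. These values lay above the graft library at its limit of 10%. The graft library was not summed under 5%, so the order at that shared limit was not tested.

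S100a4, a protein that binds non-muscle myosin and is linked to cell motility, stood at 1521 CPM (1515 to 1528) in Co-Mac, 382 (378 to 385) in VD-Mac and 643 (633 to 654) in hSTSG. S100a6, which binds annexins and Cacybp, was at 1860 CPM (1853 to 1867), 748 (743 to 753) and 2326 (2306 to 2346). VD-Mac was the lowest of the 3 libraries for both genes. S100a10, the partner of annexin A2, was at 1164 CPM (1158 to 1170) in Co-Mac, 787 (781 to 792) in VD-Mac and 573 (563 to 583) in hSTSG. S100a11, a partner of annexin A1, was at 1299 CPM (1293 to 1305), 1092 (1086 to 1098) and 819 (807 to 830). Both annexin partners were highest in Co-Mac and lowest in the graft. Among culture cells under 5% mitochondrial UMIs, S100a11 was at 1379 CPM in Co-Mac and 1455 in VD-Mac, so the order of the cultures turned. S100a1, best known from heart and skeletal muscle, was at 164 CPM (162 to 166), 160.3 (158 to 163) and 61.0 (57.8 to 64.3), and S100a13, a carrier in the export of Fgf1 and Il1a, at 217 CPM (214 to 219), 267 (264 to 270) and 201 (196 to 207). Both were lowest in the graft, and S100a13 was highest in VD-Mac.

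The graft held S100a8 and S100a9 almost wholly in granulocytes. Granulocyte precursor-like cells had the highest levels, followed by granulocyte-like cells. The precursor name rests on granule genes such as Ngp and Ltf among the top genes of the cluster. By score the granulocyte marker list came first for these clusters, in the graft and in the cultures. Retnlg, of that list, was at 20995 CPM in the precursor-like cells of the graft. S100a8 was at 151805 CPM (150507 to 153112) in the 40 precursor-like cells and 31398 (31074 to 31724) in the 475 granulocyte-like cells. S100a9 was at 125841 CPM (124660 to 127031) and 35332 (34988 to 35678). The precursor-like cells were 1.87% of the cells and held 57.1% of the S100a8 UMIs and 50.3% of the S100a9 UMIs. Granulocyte-like cells were 22.2% of the cells and held 39.2% and 46.9%. When each cell was typed by its own markers instead, the granulocyte-like levels were 58875 CPM for S100a8 and 55855 for S100a9.

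Below the granulocytes, S100a8 in the graft fell from 4863 CPM in graft cluster 9 to 366 in monocyte-like, 325 in T cell-like, 104 in macrophage-like, 66.4 in graft cluster 6, 45.4 in fibroblast-like and 19.1 in endothelial-like cells. Of these neighbours only the monocyte-like and T cell-like intervals overlapped. The order depended on the cells taken: under alternatives S100a8 ranged from 47.0 to 884 CPM in monocyte-like, from 23.7 to 404 in T cell-like and from 6.10 to 123 in fibroblast-like cells. S100a9 had the same top ranks and then 391 CPM in T cell-like, 149 in monocyte-like, 86.0 in graft cluster 6, 68.9 in macrophage-like, 64.3 in endothelial-like and 57.5 in fibroblast-like cells. The last 4 of these overlapped with their neighbours in the order. Graft cluster 9 had a median of 684 UMIs in its 38 cells, and graft cluster 6 joined B cell and dendritic cell markers, so neither has a name.

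In the cultures precursor-like cells were again highest, with S100a8 at 107125 CPM (106034 to 108224) in Co-Mac and 105901 (105198 to 106607) in VD-Mac, and S100a9 at 96882 (95845 to 97928) and 77849 (77246 to 78455). Granulocyte-like cells had S100a8 at 16584 CPM in Co-Mac and 12589 in VD-Mac, and S100a9 at 7321 and 4911. The levels of both types depended on how cells were grouped. In Co-Mac and VD-Mac the lowest precursor-like levels under an alternative were 13811 and 13034 CPM for S100a8 and 9943 and 9521 for S100a9. The highest granulocyte-like levels were 29823 and 30083 CPM for S100a8 and 18902 and 18657 for S100a9. For S100a8, granulocyte-like cells lay above precursor-like cells in both cultures at a resolution of 0.8. The granulocyte-like levels of the main grouping were lower than in the granulocyte-like cells of the graft. In granulocyte-like cells, 13 other granulocyte genes summed to 10037 CPM in the graft, 1928 in Co-Mac and 2606 in VD-Mac. Over whole libraries, all of them but Mmp8 were higher in the graft than in both cultures. Library levels take in every cell type: in the graft, fibroblast-like cells had Lcn2 at 745 CPM and endothelial-like cells had Lrg1 at 349. Retnlg stood at 384 CPM in the graft library but at 0.0754 and 0.558 CPM in the culture libraries. In the same order Lcn2 was at 308, 136 and 263 CPM and Mmp8 at 62.3, 183 and 119. Most S100a8 UMIs of Co-Mac lay in monocyte-like cells (57.7%, at 4445 CPM), ahead of granulocyte-like cells (17.7%). In VD-Mac 52.1% lay in culture cluster 6, at 8189 CPM in 1022 cells, and 21.0% in precursor-like cells. A minority of cells carried both levels: without cells over 50 UMIs of both genes, 412 of 1629 and 236 of 1022, S100a8 was at 196 CPM in monocyte-like cells and 120.5 in culture cluster 6. Other granulocyte genes were at 1380 CPM in those 412 monocyte-like cells and 341 in the rest. In culture cluster 6 they were at 5022 CPM in the 236 cells and 256 in the rest. The monocyte-like cluster scored 1.81 on monocyte markers and 1.45 on granulocyte precursor markers, and the type of the cells over 50 UMIs was not tested. The small remainders of both clusters ranked just below precursor-like cells. They were 26 Co-Mac cells of culture cluster 6 at 79104 CPM and 30 VD-Mac cells named monocyte-like at 23858 CPM. Among types of 25 or more cells, the lowest S100a8 levels were 15.6 CPM in the mast cell or basophil-like cells of Co-Mac, which overlapped with culture cluster 9, and 45.8 in culture cluster 0 of VD-Mac, which overlapped with mast cell or basophil-like cells.

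**Figure D1:**
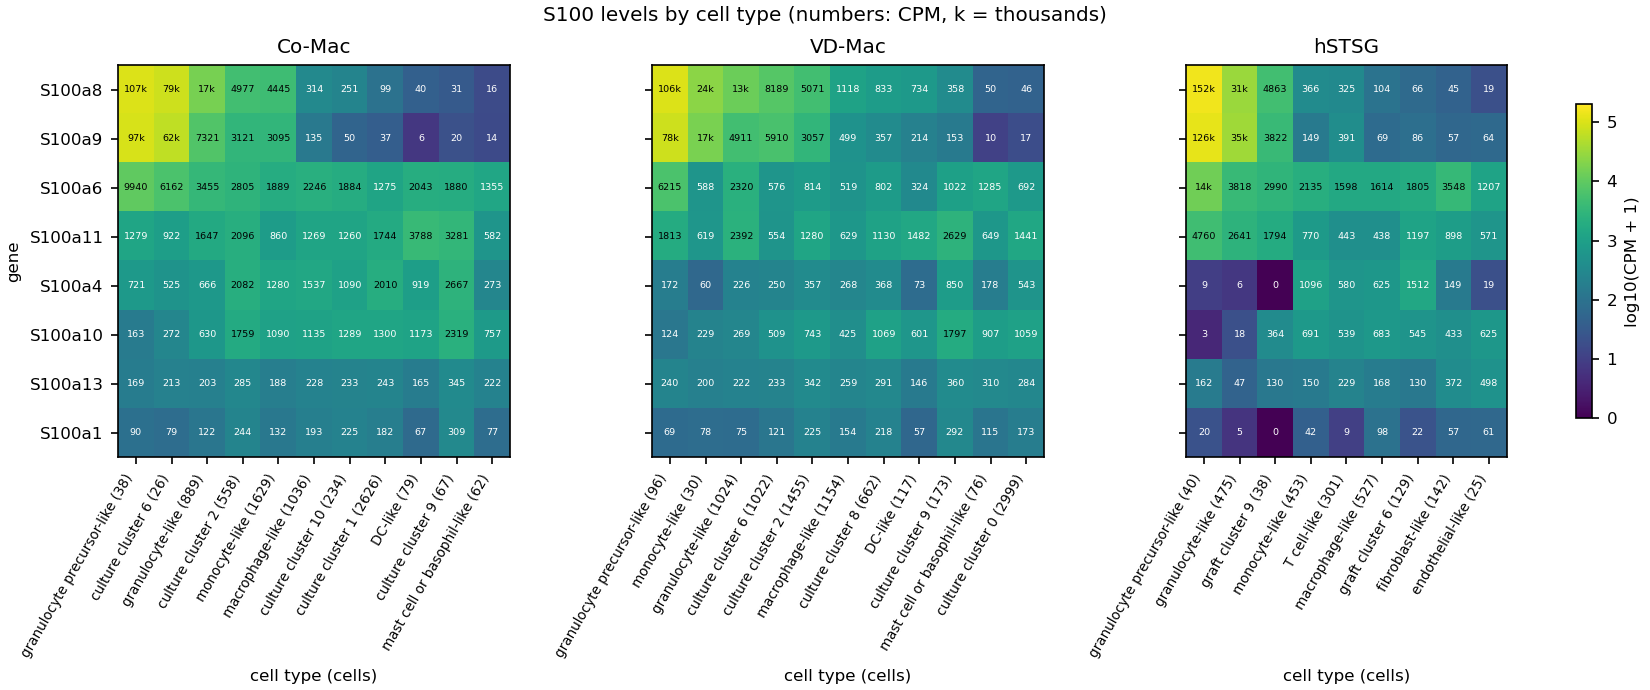
Heat map of the 8 S100 genes (vertical axis) by cell type (horizontal axis, number of cells in brackets, types with 25 or more cells), 1 panel for each library. Color is log10(CPM + 1), printed numbers are CPM over the summed cells, and types are ordered by S100a8, which is highest in granulocyte precursor-like cells of all 3 libraries.

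S100a8 and S100a9 are abundant enough to spread from granulocytes into other droplets as free RNA, so the low levels elsewhere were compared with the granulocytes of the same library. Free RNA from 1 source keeps the UMIs of both genes in 1 ratio. In the graft, S100a8 per S100a9 was 0.889 (0.876 to 0.901) in granulocyte-like cells and 1.21 (1.19 to 1.22) in precursor-like cells. Barcodes with fewer than 300 genes, which were not kept as cells, had 301 and 360 CPM and a ratio of 0.835 (0.692 to 1.01).

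T cell-like, fibroblast-like and cluster 6 cells of the graft had ratios near that of the granulocyte-like cells. The values were 0.831 (0.745 to 0.926) in T cell-like cells, 0.791 (0.641 to 0.974) in fibroblast-like cells and 0.772 (0.61 to 0.974) in graft cluster 6. Macrophage-like cells stood apart at 1.51 (1.36 to 1.67) and monocyte-like cells at 2.46 (2.23 to 2.72), both above precursor-like cells, while endothelial-like cells had 0.297 (0.137 to 0.595) from 11 and 37 UMIs.

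The 5% of cells with the most UMIs held 48.8% of those in macrophage-like cells and 45.8% in endothelial-like cells, and more in T cell-like cells. Of 301 T cell-like cells, 69.1% had no UMI of either gene, and the top 5% held 93.6%. Only 7 cells had over 50 UMIs of both genes together, and 6 of those 7 were among the cells with the highest doublet scores. Other granulocyte genes were at 2154 CPM in those 7 cells and at 340 CPM in the other 294. Without the 7 cells, S100a8 in T cell-like cells was 37.7 CPM (29.4 to 47.7) in place of 325. Only T cell-like cells with no UMI of any other granulocyte gene gave 23.7 CPM, and all 13 of those other genes were detected in T cell-like cells, at 396 CPM in sum and led by Hdc at 251 CPM.

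Leaving out cells over 50 UMIs, a cut chosen after seeing the data, changed the monocyte-like cells of the graft more than its macrophage-like cells. Without 8 cells over 50 UMIs, monocyte-like cells had S100a8 at 54.6 CPM (47.3 to 62.6) and S100a9 at 53.2 (46.0 to 61.2), and a ratio of 1.03 (0.838 to 1.26). Without 4 such cells, macrophage-like cells had 82.5 CPM (76.7 to 88.6) and 37.8 (33.9 to 42.04), and a ratio of 2.18 (1.92 to 2.49). Of the cells left out, 5 of 8 monocyte-like and 0 of 4 macrophage-like cells were among those with the highest doublet scores. After this step the macrophage-like cells, and not the monocyte-like cells, lay above both granulocyte ratios of all cells. Granulocyte-like cells under the same cut had 0.861 (0.802 to 0.924), which overlapped with monocyte-like cells. The cut is set on the sum of the counts that form the ratio, so these values describe only the cells left. Without 1 such cell each, fibroblast-like cells had S100a8 at 11.9 CPM (8.58 to 15.96) in place of 45.4 and a ratio of 0.473 (0.321 to 0.686), below granulocyte-like cells, and graft cluster 6 had a ratio of 0.791 (0.489 to 1.27). The source of the S100a8 and S100a9 UMIs in these types was not tested.

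To count cells with a UMI at equal depth, 2000 UMIs were drawn from each cell, and cells with fewer were left out. For S100a8 the share at this depth was 97.2% (94.7 to 98.7) of 318 granulocyte-like cells, with 157 left out, and 16.1% (13.02 to 19.6) of 509 macrophage-like cells, with 18 left out. T cell-like cells, which should lack the gene, gave 6.44% (3.92 to 9.88) of 295, with 6 left out. Fibroblast-like cells gave 2.84% (0.778 to 7.10) of 141. With all UMIs, and in the same order, 96.6%, 52.8%, 15.3% and 25.4% of cells had one, where the median cell held 2264, 14142, 5552 and 25375 UMIs. The macrophage-like share lay above that of T cell-like cells at equal depth.

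In the cultures, the ratio of S100a8 to S100a9 UMIs was 2.27 (2.24 to 2.30) in granulocyte-like cells of Co-Mac and 2.56 (2.52 to 2.61) in those of VD-Mac. Precursor-like cells had 1.11 and 1.36, and barcodes with fewer than 300 genes had 0.952 (0.78 to 1.16) and 0.888 (0.78 to 1.01). The level of S100a8 in those barcodes was 466 CPM (404 to 536) in Co-Mac and 922 (839 to 1011) in VD-Mac. Macrophage-like cells had ratios of 2.33 and 2.24. When their cells over 50 UMIs were left out, 21 in Co-Mac and 76 in VD-Mac, the ratios rose to 8.41 (7.42 to 9.56) and 9.27 (8.25 to 10.5). Granulocyte-like cells with 50 UMIs or fewer had 15.8 (14.2 to 17.6) and 13.3 (12.2 to 14.6). The source of the UMIs in macrophage-like cells was not tested.

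**Figure D2:**
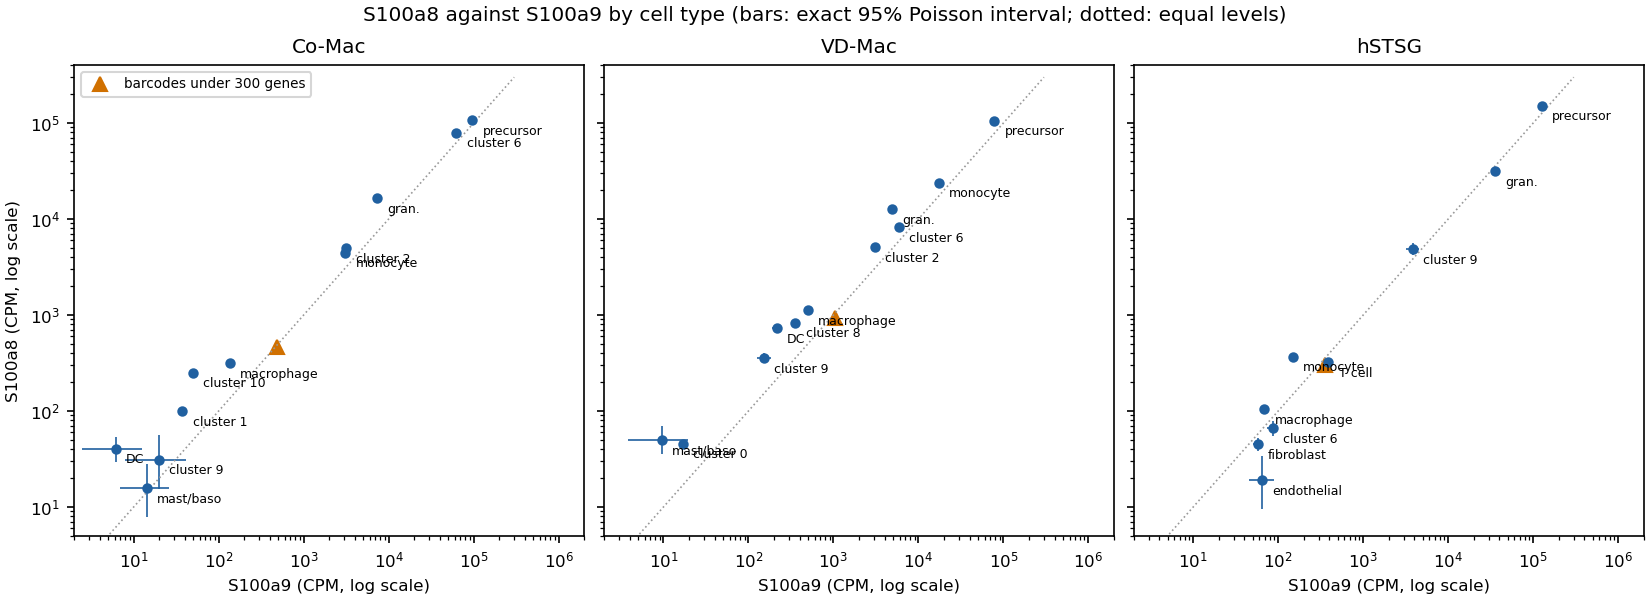
S100a8 (vertical axis) against S100a9 (horizontal axis), both in CPM on log scales, 1 point for each cell type of 25 or more cells and 1 panel for each library, with short type names (gran. for granulocyte-like, mast/baso for mast cell or basophil-like). Bars are exact 95% Poisson intervals, the dotted line marks equal levels and triangles are barcodes with fewer than 300 genes, which in hSTSG lie beside the T cell-like point and below the granulocytes by a factor of about 100 (301 against 31398 CPM).

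S100a4 and S100a10 had nearly the opposite distribution in the graft: low in granulocytes and high in mononuclear cells. S100a4 was highest in graft cluster 6 at 1512 CPM (1458 to 1567) and in monocyte-like cells at 1096 (1063 to 1130), followed by macrophage-like cells at 625 (609 to 641) and T cell-like cells at 580.4 (547 to 616), which overlapped. At a resolution of 0.8 macrophage-like cells had 206 CPM, below T cell-like cells. Fibroblast-like cells had 149 CPM (137 to 162), granulocyte-like cells 6.12 (2.46 to 12.6), or 77.3 when typed by their own markers, and graft cluster 9 had none, which allows up to 78.0 CPM. After thinning, a UMI of S100a4 was found in 66.9% (62.0 to 71.6) of 384 monocyte-like cells, 50.5% (44.7 to 56.4) of 295 T cell-like cells and 1.57% (0.513 to 3.63) of 318 granulocyte-like cells. Left out of these were 69, 6 and 157 shallow cells, and the unthinned shares were 74.2%, 62.8% and 1.47% at medians of 7905, 5552 and 2264 UMIs. S100a10 was at 691 CPM (665 to 718) in monocyte-like, 683 (666 to 699.7) in macrophage-like and 625 (562 to 693) in endothelial-like cells, whose neighbouring intervals overlapped. It fell to 18.4 CPM (11.4 to 28.1) in granulocyte-like cells, or up to 42.7 under an alternative, and to 2.90 (0.0735 to 16.2) in precursor-like cells.

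S100a6 and S100a11 were highest in granulocyte precursor-like cells of the graft, where calprotectin was highest too. S100a6 had 14424 CPM (14026 to 14831) there, 3818 (3705 to 3932) in granulocyte-like, 3548 (3487 to 3609) in fibroblast-like, 2135 (2089 to 2182) in monocyte-like, 1614 (1588 to 1640) in macrophage-like and 1207 (1119 to 1300) in endothelial-like cells. Fibroblast-like cells and graft cluster 9 overlapped, as did macrophage-like and T cell-like cells. S100a11 had 4760 CPM (4532 to 4996) in precursor-like, 2641 (2547 to 2736) in granulocyte-like, 898 (867 to 929) in fibroblast-like and 438 (424 to 451) in macrophage-like cells, which overlapped with T cell-like cells at 443 (413 to 474). At a resolution of 0.8 macrophage-like cells had 909 CPM of S100a6 and 205 of S100a11, and typed by their own markers granulocyte-like cells had 6418 of S100a6.

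The last pair, S100a1 and S100a13, stood lower. S100a13 was led by endothelial-like cells at 498 CPM (442 to 560) and fibroblast-like cells at 372 (353 to 393), which did not overlap. Among types of 25 or more cells it was lowest in granulocyte-like cells at 47.2 (35.5 to 61.6), which overlapped with graft cluster 9. An alternative gave up to 82.1 CPM in granulocyte-like cells. S100a1 was led by macrophage-like cells at 98.5 CPM (92.1 to 105), which held 65.2% of its UMIs in 24.6% of the cells. Endothelial-like and fibroblast-like cells followed at 60.8 (42.3 to 84.5) and 57.5 (50.0 to 65.8). Granulocyte-like cells were near the bottom at 5.24 (1.92 to 11.4), or up to 10.2 under an alternative.

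In the cultures S100a4 was highest in culture cluster 9 in both libraries, at 2667 CPM (2499 to 2843) in Co-Mac and 850.1 (785 to 920) in VD-Mac, and granulocyte-like cells had 666 and 226, far above the granulocyte-like cells of the graft. Culture cluster 9 also led S100a10 at 2319 and 1797 CPM, S100a1 at 309 and 292 and S100a13 at 345 and 360.2. This unnamed cluster was shallow, with medians of 5169 UMIs in 67 Co-Mac cells and 4029 in 173 VD-Mac cells. Over all kept cells the medians were 15804 and 12089. It overlapped with culture cluster 2 for S100a1 in Co-Mac and for S100a13 in both libraries. Precursor-like cells led S100a6 at 9940 and 6215 CPM and were lowest for S100a10 at 163 and 124. Other groupings gave S100a6 as low as 1992 and 325 CPM there and S100a10 as high as 867 and 448, and at a resolution of 0.8 granulocyte-like cells lay above them for S100a6 in both cultures. S100a11 was led by DC-like cells in Co-Mac at 3788 CPM, but as low as 1851 under other groupings, and by culture cluster 9 in VD-Mac at 2629. S100a13 varied least, by 2.10 times between its highest and lowest type in Co-Mac and 2.47 times in VD-Mac, and 9 of its neighbouring pairs of types overlapped in each culture.

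Across the 25 cell types of 50 or more cells in the 3 libraries, each gene was compared with 6327 others by the Pearson correlation of log2(CPM + 1). These points share libraries and differ in depth, so the values are a description. S100a8 and S100a9 were each the closest gene to the other, at 0.98, followed by Gm5483 (0.94 with S100a8) and the stefin gene Stfa2l1 (0.93 with S100a8 and with S100a9). S100a4 was closest to Ass1 at 0.89, S100a6 to Anxa2 at 0.75, S100a10 to Prdx2 at 0.93, S100a11 to Lsp1 at 0.72, S100a13 to Gnpnat1 at 0.90 and S100a1 to B230118H07Rik at 0.93. Among the members, S100a4 and S100a10 went together at 0.83, and S100a9 and S100a10 went apart at -0.62. For S100a6 the closest gene encodes an annexin, annexin A2.

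VD3 addresses which S100 genes differ when cultured marrow cells see the active vitamin. S100a4 and S100a6 were lower in VD-Mac than in Co-Mac, by 3.99 and 2.49 times, and no member was 2-fold higher over all cells. S100a8 and S100a9 differed little in the whole cultures but stood higher in some cell types of VD-Mac, mostly through few cells. Ratios are log2 of VD-Mac over Co-Mac with an exact conditional 95% interval, and a gene is called where the libraries differ by 2-fold or more and the higher of them reaches 10 CPM.

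Over all kept cells, S100a4 had a log2 ratio of -1.995 (-2.01 to -1.98) and S100a6 one of -1.31 (-1.33 to -1.30). These 2 of 8 members were called lower, where 4.63% of the 7732 genes with 10 CPM were, and 0 were called higher, where 2.16% were. In either direction 2 of 8 were called, against 6.79% of genes. The median log2 ratio was -0.14 over the members and -0.10 over all those genes. The other members had -0.57 for S100a10, -0.25 for S100a11, -0.03 for S100a1, 0.20 for S100a9, 0.23 for S100a8 and 0.30 for S100a13. Under alternatives S100a11 ranged from -0.301 to 0.078 and S100a1 from -0.486 to 0.052, so the sign of each could turn. S100a4 kept its call in all 10 alternatives run. For S100a6 a mitochondrial limit of 5% gave -0.91 and an average with the cell type shares of Co-Mac gave -0.997, just short of 2-fold, so its call ended in both. That average also brought S100a9 to 1.02, S100a8 to 0.90 and S100a10 to -1.12, which made 3 members past 2-fold. It rests on 10 types with 96.6% of the Co-Mac cells, among them cluster 1 with 15 VD-Mac cells and monocyte-like cells with 30.

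S100a4 was lower in VD-Mac in 6 of the 6 types with 50 or more cells in both libraries, and was called in 5. In macrophage-like cells it went from 1537 to 268 CPM (log2 ratio -2.52, -2.56 to -2.48), in culture cluster 2 from 2082 to 357 (-2.54), in DC-like cells from 919 to 73.2 (-3.65), in culture cluster 9 from 2667 to 850.1 (-1.65) and in granulocyte-like cells from 666 to 226 (-1.56). The DC-like ratio ranged from -4.12 to -1.87 under other groupings, with S100a4 in VD-Mac up to 544 CPM when cells were typed by their own markers. Mast cell or basophil-like cells had 273 and 178 CPM, a log2 ratio of -0.62. S100a6 was also below 0 in 6 of 6 types and called in 3, from 2246 to 519 CPM in macrophage-like (-2.11), 2043 to 324 in DC-like (-2.66) and 2805 to 814 in culture cluster 2 cells (-1.78). In granulocyte-like cells, where S100a6 was highest of these 6 types, it had 3455 and 2320 CPM (-0.57).

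Macrophage-like cells had the most members called. S100a4, S100a6, S100a10 (1135 to 425 CPM, -1.42) and S100a11 (1269 to 629 CPM, -1.01) made 4 of 8 called lower, against 6.27% of the genes tested there, and S100a8 and S100a9 made 2 of 8 called higher, against 4.89%. In either direction 6 of 8 were called, against 11.2%. S100a11 passed by little: it had -0.69 to -0.99 in 5 alternative ways to form the type. S100a10 had -0.99 when cells were typed by their own markers. The macrophage-like cells of the 2 cultures came almost wholly from different clusters, so a difference in the cells grouped and a difference in level cannot be told apart.

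S100a8 in macrophage-like cells went from 314 CPM (307 to 321) in Co-Mac to 1118 (1103 to 1133) in VD-Mac, and S100a9 from 135 (130.3 to 140) to 499 (489 to 510). The log2 ratios were 1.83 (1.79 to 1.87) and 1.89 (1.83 to 1.95). At a resolution of 0.3 S100a8 was at 2108 CPM in Co-Mac and 4688 in VD-Mac. Most of these UMIs lay in few cells: 21 cells in Co-Mac and 76 in VD-Mac had over 50 UMIs of both genes together, and the top 5% of cells held 82.4% and 85.7%. Other granulocyte genes moved with them. Their sum was 294 CPM in Co-Mac and 494 in VD-Mac, led by Mmp8 at 236 and 264, 12 of 13 had a UMI in each library and Retnlg had none, and 4 of the 5 that reached 10 CPM were called higher (Cxcr2, Il1r2, Lcn2 and Ngp), against 4.89% of genes. In the 76 cells they were at 2066 CPM, and in the other 1078 at 391. Among the cells with the highest doublet scores were 3 of the 21 in Co-Mac and 5 of the 76 in VD-Mac. Without the cells over 50 UMIs, S100a8 was 104 CPM (99.9 to 109) and 162 (157 to 168), a log2 ratio of 0.64, and S100a9 had 0.50, so both calls ended. That cut is set on the counts of these genes themselves, so it shows only that few cells carried the calls. Both calls also ended when cells were typed by their own markers, at 0.18 and 0.38. In macrophage-like cells with no UMI of any other granulocyte gene, S100a8 was at 82.6 CPM in VD-Mac, which was below Co-Mac. Only a minority of cells was left there. Of the cells with 50 UMIs or fewer of S100a8 and S100a9, 743 of 1015 in Co-Mac and 928 of 1078 in VD-Mac held such a UMI. The cells left may differ between the libraries, so these values cannot decide the direction. The part of these granulocyte genes in the result was not tested further.

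Granulocyte-like cells had 2 of 8 members called lower, S100a4 and S100a10 (630.2 to 269 CPM, -1.23), where 2.32% of genes were, and 0 called higher, where 1.58% were, so 2 of 8 in either direction against 3.9%. S100a8 had a log2 ratio of -0.40 (16584 to 12589 CPM) and S100a9 of -0.58 (7321 to 4911 CPM), while S100a11 had 0.54 (1647 to 2392 CPM). Typed by their own markers, granulocyte-like cells had -0.55 for S100a10 and -1.24 for S100a6, so the first call ended and the second appeared. The direction of S100a8 and S100a9 depended on how the type was formed. At resolutions of 0.3 and 0.8 and with 30 principal components both were above 0, up to 0.35 for S100a8 and 0.41 for S100a9, while typing by own markers gave the lowest values, -0.76 and -0.99. Without cells over 50 UMIs of both genes, 309 in Co-Mac and 249 in VD-Mac, S100a8 was at 2474 and 2774 CPM and S100a9 at 157 and 208. That cut is set on the counts of these genes themselves, so it cannot decide their direction.

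In culture cluster 2, with a median of 1834 UMIs per cell in VD-Mac, 3 of 8 members were called lower, S100a4, S100a6 and S100a10 (1759 to 743 CPM, -1.24), against 3.71% of genes, and 0 higher, against 8.8%, so 3 in either direction against 12.5%. S100a8 there was at 4977 and 5071 CPM, and at 596 (559 to 635) and 774 (743 to 806) without 70 of 558 and 122 of 1455 cells over 50 UMIs. Other granulocyte genes had a UMI for 12 of 13 in Co-Mac and 11 of 13 in VD-Mac, at 93.5 and 218 CPM in sum and led by Lcn2 at 31.7 and 83.5, with Retnlg at 0 in both, and their part was not tested. DC-like cells had 3 of 8 called lower, S100a4, S100a6 and S100a11 (3788 to 1482 CPM, -1.35), against 7.26%, and 2 called higher, S100a8 and S100a9, against 8.94%, so 5 in either direction against 16.2%. Those increases, from 40.5 to 734 CPM (4.18) and from 6.16 to 214 CPM (5.12), lay mostly in 2 of 117 cells. Other granulocyte genes had a UMI for 4 of 13 in Co-Mac and 8 of 13 in VD-Mac, at 243 and 471 CPM in sum and led by Il1r2 at 232 and 344, with Retnlg at 0 in both, and their part in the result was not tested. Without the 2 cells, but with a Co-Mac cell that held 27 UMIs of both genes, S100a8 had -0.04 and S100a9 had 0.82. With doublets removed before clustering S100a8 had 0.68 and S100a10 reached -1.09. Typed by own markers, DC-like cells had 0.72 for S100a8, 0.61 for S100a9, -0.84 for S100a6 and -0.33 for S100a11, and S100a11 also lost its call at a resolution of 0.8 (-0.25) and with 30 principal components (-0.82). In culture cluster 9, 1 of 8 was called lower, S100a4, against 8.93%, and 2 higher, against 13.1%, so 3 in either direction against 22.1%. The 2 were S100a8, from 31.1 to 358 CPM, and S100a9, from 19.8 to 153, with 94.4% of the VD-Mac UMIs in the top 5% of cells. There 1 of 13 other granulocyte genes had a UMI in Co-Mac (G0s2, 8.49 CPM) and 7 of 13 in VD-Mac (27.3 CPM in sum, led by Lcn2 at 12.3), with Retnlg, Cxcr2 and Csf3r at 0 in both, and their part was not tested. Without 2 VD-Mac cells over 50 UMIs, S100a8 was at 31.1 and 48.5 CPM and S100a9 at 19.8 and 11.1, so both calls ended. That cut is set on the counts of these genes and left out no Co-Mac cell, so it shows only that the 2 cells carried the calls. S100a9 then rested on 7 and 8 UMIs whose intervals overlapped. Mast cell or basophil-like cells had 1 of 8 called higher, S100a8 from 15.6 to 50.2 CPM on 11 and 37 UMIs, against 9.03%, and 0 lower, against 6.25%, so 1 in either direction against 15.3%. In VD-Mac 1 cell held 25 UMIs of both genes, where S100a9 had 7 in all, so most of the 25 were S100a8 and the call rested on that cell.

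The largest cluster of each culture held mostly 1 library, so they were set side by side without a call. Cluster 1, with 2626 Co-Mac cells, and cluster 0, with 2999 VD-Mac cells, had S100a4 at 2010 and 543 CPM, S100a6 at 1275 and 692, and S100a10 at 1300 and 1059. S100a8 was at 99.1 and 45.8 CPM and S100a9 at 37.2 and 17.0. Without 17 and 9 cells over 50 UMIs S100a8 was at 26.1 (24.6 to 27.8) and 23.7 CPM (22.3 to 25.2), and the intervals of both genes overlapped. S100a1 was at 182 and 173 CPM and S100a11 at 1744 and 1441. These 7 genes were lower in the cluster of VD-Mac cells, and S100a13 was higher there, at 243 and 284 CPM.

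**Figure D3:**
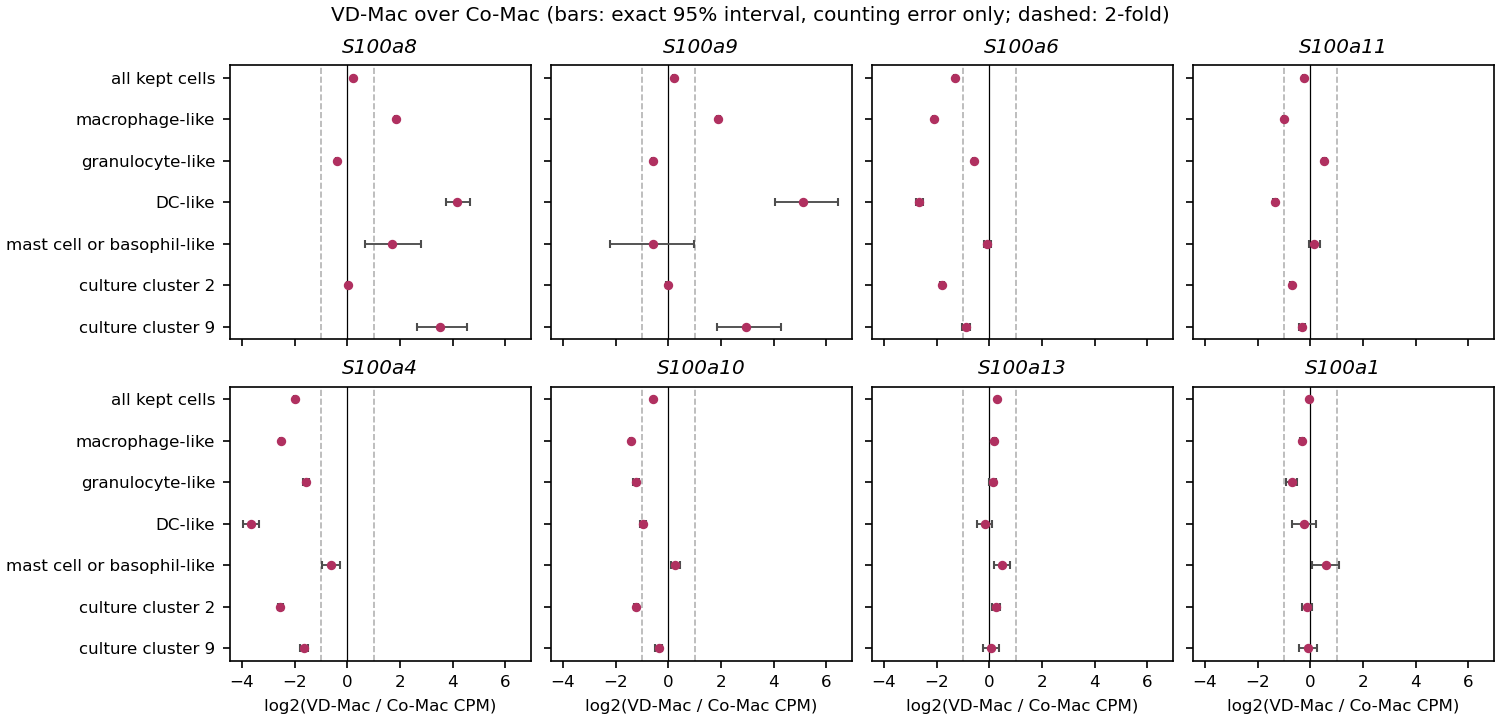
Log2 ratio of CPM in VD-Mac over Co-Mac (horizontal axis) for each S100 gene (1 panel each) over all kept cells and in the 6 types with 50 or more cells in both libraries (vertical axis). Points are ratios, bars exact 95% intervals for counting error and dashed lines 2-fold: S100a4 lies left of 0 in all 6 types, and S100a8 ranges from -0.40 to 4.18.

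Genes whose products meet S100 proteins were followed as lists. Over all cells 4.63% of all genes tested were called lower and 2.16% higher, which stand beside the counts of each list. Of 5 receptors, 4 reached 10 CPM, and 2 were called lower in VD-Mac over all cells: Cd36, a scavenger receptor, from 182 to 61.4 CPM (-1.56), and Cd33, from 35.2 to 14.9 CPM (-1.24). Tlr4 had 31.9 and 20.8 CPM (-0.62) and Bsg had 193 and 202 CPM (0.07). Of 10 binding partners, 9 reached 10 CPM, with 3 called lower and 1 higher. The 3 were Anxa2, the partner of S100a10, from 471 to 162 CPM (-1.54), Anxa1, the partner of S100a11, from 323 to 157 CPM (-1.04), and Ahnak, a scaffold bound by the S100a10 complex, from 271 to 131 CPM (-1.05). Il1a, a cargo exported with S100a13, went from 10.8 to 25.5 CPM (1.24). The same 4 partners were called in the same directions in macrophage-like cells, where Anxa2 had -2.24 and Cd36 and Cd33 were again the receptors called lower, beside 6.27% of genes lower and 4.89% higher. Anxa1 was also called lower in DC-like cells, culture cluster 2 and mast cell or basophil-like cells, and Anxa2 in DC-like cells and culture cluster 2. In DC-like cells Anxa6 was called lower too (201 to 96.9 CPM, -1.05), and in culture cluster 2 the receptor Bsg was called higher (51.2 to 131 CPM, 1.35). All genes called were 7.26% lower and 8.94% higher in DC-like cells, 3.71% and 8.8% in culture cluster 2, and 6.25% and 9.03% in mast cell or basophil-like cells. In contrast, granulocyte-like cells had no partner called lower and Il1a called higher (18.3 to 41.1 CPM), beside 2.32% and 1.58% of genes. Culture cluster 9 had 0 of 7 partners called in either direction, beside 22.1% of genes. Cacybp, a partner of S100a6, had 129 and 78.9 CPM (-0.70), Sugt1 had 145 and 178 CPM (0.29), and Myh9, the myosin bound by S100a4, had 301 and 229 CPM (-0.39).

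S100a10 with annexin A2 is a surface receptor for plasminogen. Of 4 genes of the plasmin system, 2 reached 10 CPM over all cells, and Plaur, the urokinase receptor, was called lower, from 122 to 33.5 CPM (-1.87), while Plgrkt had 209 and 215 CPM. In macrophage-like cells Plaur (276 to 73.9 CPM, -1.90) and Plau (12.2 to 0.951 CPM, -3.68) were called lower, 2 of 3 against 6.27% of genes. Among 13 other granulocyte genes, 9 reached 10 CPM over all cells, with Mmp9 called higher (7.63 to 19.4 CPM, 1.34) and G0s2 lower (10.2 to 3.1 CPM, -1.72). The median log2 ratio of the 9 was 0.66, where it was -0.10 over all genes. Il1r2 (28.2 to 55.2 CPM, 0.97), Lcn2 (136 to 263 CPM, 0.95), Cxcr2 (0.83), Ngp (81.7 to 129 CPM, 0.66) and Ltf (0.65) stood higher in VD-Mac without a call, and Mmp8 lower (183 to 119 CPM, -0.62). In granulocyte-like cells Mmp9 (155 to 449 CPM, 1.54) and Hdc (1.29) were called higher, 2 of 11 against 1.58% of genes, and Ltf lower (-2.27), 1 of 11 against 2.32%. Called higher in DC-like cells were Mmp8, Mmp9, Lcn2 and Ngp, 4 of 5 against 8.94% of genes, and in culture cluster 2 Il1r2, Lcn2 and Ngp, 3 of 4 against 8.8%. In the DC-like cells of VD-Mac all 13 together were at 2919 CPM in the 2 cells over 50 UMIs of S100a8 and S100a9 and at 391 in the other 115.

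All 8 members lie on mouse chromosome 3 in the annotation used for names (GRCm38), 6 of them close together (S100a1, S100a13, S100a4, S100a6, S100a8 and S100a9) and the other 2, S100a10 and S100a11, further along. S100a1 and S100a13 start head to head, so their promoter windows overlap. Promoters from RefSeq (GRCm38.p6, 300 bases each) were matched by symbol for 7 of the 8 members. They were searched on both strands for TATAAA, the core of a TATA box, found in 13.6% of all 32851 promoters. AGGTCA and AGTTCA, half-sites of vitamin D response elements, were found in 16.3% and 14.0%. For pairs, GGGTCA and GGTTCA were also taken as half-sites. A pair in 1 direction with 3 bases between was in 0.0396% of promoters and in none of the 7. GGGTCA and GGTTCA were searched only within pairs and are not marked below. The 4 shown are those of the pair with the closest pattern, S100a8 and S100a9, and of the members lower over all cells, S100a4 and S100a6, with matches in capitals. S100a8 lies at chr3:90668821-90669120 on the + strand, S100a9 at chr3:90695672-90695971 on the - strand, S100a4 at chr3:90603520-90603819 on the + strand and S100a6 at chr3:90612644-90612943 on the + strand.
S100a8: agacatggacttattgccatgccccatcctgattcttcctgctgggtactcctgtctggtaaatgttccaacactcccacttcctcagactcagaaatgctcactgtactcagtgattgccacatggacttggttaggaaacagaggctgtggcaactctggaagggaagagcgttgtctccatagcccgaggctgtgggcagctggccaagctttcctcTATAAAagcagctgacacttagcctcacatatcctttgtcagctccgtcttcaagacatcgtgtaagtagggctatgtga
S100a9: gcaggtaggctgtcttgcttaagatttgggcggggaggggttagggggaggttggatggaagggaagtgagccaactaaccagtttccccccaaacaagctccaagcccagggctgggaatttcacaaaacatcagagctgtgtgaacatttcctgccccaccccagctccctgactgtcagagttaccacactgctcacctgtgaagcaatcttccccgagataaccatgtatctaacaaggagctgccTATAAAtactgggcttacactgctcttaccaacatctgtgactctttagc
S100a4: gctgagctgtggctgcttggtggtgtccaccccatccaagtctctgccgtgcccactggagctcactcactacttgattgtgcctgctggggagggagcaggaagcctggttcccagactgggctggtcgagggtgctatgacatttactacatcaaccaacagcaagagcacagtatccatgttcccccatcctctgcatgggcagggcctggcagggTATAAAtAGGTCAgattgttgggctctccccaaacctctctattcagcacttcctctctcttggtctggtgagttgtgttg
S100a6: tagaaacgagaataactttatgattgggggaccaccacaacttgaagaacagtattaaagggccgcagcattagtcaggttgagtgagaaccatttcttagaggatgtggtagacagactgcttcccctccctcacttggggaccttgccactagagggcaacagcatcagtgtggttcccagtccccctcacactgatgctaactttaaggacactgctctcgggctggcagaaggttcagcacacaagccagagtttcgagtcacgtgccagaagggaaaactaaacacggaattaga
S100a8, S100a9 and S100a4 hold TATAAA, and S100a4 holds AGGTCA 1 base after it, while the S100a6 window has none of these letters. S100a11 holds overlapping AGGTCA and AGTTCA on its - strand, and S100a1 and S100a13 hold none of the marked motifs. A match of letters is not a bound site, and binding was not measured here.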

How the data were processed

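The authors deposited UMI counts per barcode for each library (10x 3' v3). Their notes name Cell Ranger, Seurat 3.1.1 and the build mm9, and the headers of the counts give version 3.1.0. Hashtag counts of hSTSG (1195935 UMIs) were left out. Barcodes with 300 or more genes, under 100000 gene UMIs and under 10% mitochondrial UMIs were kept. Cells were clustered in Seurat 5.3.0 (R 4.3.3; 15 principal components, resolution 0.5), the graft alone and the 2 cultures together, without the S100 genes and their listed partners among the variable genes. Clusters were named from marker lists by a rule that was settled after the clusters had been seen. Scrublet as run in scanpy 1.11.5 called 1, 0 and 8 doublets by its own threshold, so an alternative removed the 457, 691 and 45 cells with the highest scores. Sums, exact intervals and ratios came from Python 3.11.15 (numpy 2.4.6, scipy 1.17.1, pandas 2.3.3), and figures from matplotlib 3.10.9. A ratio entered the count of calls with 10 or more CPM in the higher library, with 0 read as 3 counts. List genes were named where called, or at 50 or more CPM over all cells of either culture. The steps were tested on simulated data. The members and lists were chosen with earlier results of these data known.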

Additional observations from a re-analysis of the deposited data

How the results depend on the processing

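Each condition is 1 library, treatment and library cannot be told apart, and the cause of each shift below was not tested. Over all kept cells, the log2 ratio of S100a4 (-1.995) was -1.91 with a mitochondrial limit of 5%, -2.02 with doublets removed, -1.91 with median ratio scaling, -2.04 as a mean over cells and -1.67 with the cell type shares of Co-Mac. S100a6 (-1.31) had -0.91 with the 5% limit, -1.23 with median ratio scaling, -1.07 as a mean over cells, -1.44 without granulocyte-like and precursor-like cells and -0.997 with Co-Mac shares. S100a8 (0.23) had 0.19 over every barcode, 0.50 with the 5% limit, 0.31 with median ratio scaling, 0.037 as a mean over cells, 0.13 without granulocyte-like and precursor-like cells and 0.90 with Co-Mac shares. In the same order S100a9 (0.20) had 0.16, 0.47, 0.29, 0.094, 0.090 and 1.02. The number of members past 2-fold was 2, but 1 with the 5% limit, which kept 3125 and 3619 culture cells, and 3 with Co-Mac shares.

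In macrophage-like cells S100a4 (-2.52) had -2.36 at resolution 0.3, -2.42 at 0.8, -2.47 with S100 genes kept among the variable genes, -2.45 with doublets removed before clustering and -2.21 with each cell typed by its own markers. S100a8 there (1.83) had 1.15 at 0.3, 1.90 at 0.8, 1.89 with 30 principal components, 2.02 with doublets removed before clustering, 0.18 by own markers and 0.64 without cells over 50 UMIs of S100a8 and S100a9, an alternative chosen after seeing the data. In DC-like cells that last alternative took S100a8 from 4.18 to -0.037 by leaving out 2 VD-Mac cells. It is set on the counts of S100a8 and S100a9, so in both types it shows only how far few cells carried the difference. In granulocyte-like cells of the graft own markers gave 58875 CPM of S100a8 (31398) and 55855 of S100a9 (35332).

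In T cell-like cells of the graft S100a8 (325 CPM) was 54.5 with doublets removed before or after clustering, 105 by own markers, 23.7 in cells with no UMI of other granulocyte genes, 404 with the 5% limit and 37.7 without cells over 50 UMIs. Of 176 ratios within a type under an alternative, 165 kept their sign and 154 their side of 2-fold. Of 904 levels in a type, 740 stayed within 1.5 times.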

Other observations

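Of the 9 other S100 genes, none reached 10 CPM in either culture. In the graft S100a16 stood at 56.9 CPM (53.9 to 60.1) and was highest in fibroblast-like cells, at 303 CPM (285 to 321). S100b was at 1.94 CPM in the graft library and at 52.0 CPM in graft cluster 9, from 2 UMIs.

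In the graft Tlr4, a receptor of calprotectin, was highest in granulocyte-like cells at 232 CPM (205 to 262), and Il1a was also highest there at 1125 CPM (1064 to 1188). Plat, a plasminogen activator, was highest in fibroblast-like cells at 346 CPM (327 to 366).

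Culture cells with under 5% mitochondrial UMIs held more S100a8 than those with 5% to 10%, at 5977 and 1728 CPM in Co-Mac and 8474 and 2285 CPM in VD-Mac. S100a6 in VD-Mac was at 1027 CPM in the first group and 675 in the second, and S100a4 at 394 and 379.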
